A study of Mus musculus with 2 samples.

Results

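In DNase-seq of mouse urinary bladder, 977 accessible regions lay inside protein-coding sequence, away from gene starts, in both of the 2 libraries. A peak was taken when its midpoint fell in a coding interval of a protein-coding transcript of GENCODE M21 and more than 1 kb from every transcription start site (TSS) of a protein-coding transcript. Peaks were kept when they overlapped by at least 1 bp in both libraries and formed a 1 to 1 pair. They are 977 of 68801 peak pairs on chromosomes 1 to 19, and 46954 further pairs lay more than 1 kb from a TSS outside coding sequence. Replicate 1 held 1515 coding-exon peaks and replicate 2 held 1868, of which 1003 and 997 overlapped one of the other library. Of these, 26 and 20 overlapped one that was already matched to a better partner, and they were not counted.

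DNase I cuts DNA where nucleosomes do not cover it, and a run of dense cuts marks accessible chromatin. Inside such a region, a bound protein can shield a few bases from cutting and leave a footprint. Most accessible sites of a tissue lie at promoters, in introns and between genes. A site in a coding exon has to carry the amino acid code and any protein-binding sequence in the same bases.

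The tissue was urinary bladder of female adult mice, 18 to 20 months old, of the B6CASTF1/J strain, which is a first-generation cross, so that each cell carries 1 genome of each parent line. The libraries are given as biological replicates 1 and 2 of 1 group under 1 donor record, and the labels do not say whether they came from 1 animal or more. With 1 group and no treatment, values are given per library, and no test between groups was possible. In whole tissue, fewer cells with an open site and less cutting per cell cannot be told apart.

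Promoters of 25 and 24 of 25 urothelial genes held a peak in replicates 1 and 2, and those of 22 and 16 of 23 smooth muscle genes did, against 4 and 4 of 16 hepatocyte genes. Of 17755 genes with coding sequence beyond 1 kb of a TSS but no shared coding-exon peak, 68.9% had a promoter peak in both libraries. The 16 of 23 smooth muscle genes in replicate 2 were near that share. Signal values in the deposited lists are whole multiples, within 0.02 of a step, of a step that differs between the libraries. The median coding-exon peak stands at 100 steps in replicate 1 and at 109 in replicate 2, and whether a step is 1 read is not stated.

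The strongest of these regions that hold a CTCF consensus match show how a binding sequence sits in coding DNA. CTCF is a zinc finger protein that anchors chromatin loops. Of the 6 strongest, 5 are given, read 5′ to 3′ on the strand of the match from GRCm38.p6, with the consensus match in capitals and the flanking bases in lower case. All the capitals lay in a footprint of both libraries.
Rsad1: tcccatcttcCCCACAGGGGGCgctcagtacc
Spi1: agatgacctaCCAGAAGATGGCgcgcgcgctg
Ccdc194: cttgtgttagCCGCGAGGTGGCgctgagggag
Synpo2l: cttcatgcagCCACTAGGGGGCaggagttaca
Rimbp3: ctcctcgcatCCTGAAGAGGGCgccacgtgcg
The matches lie at chr11:94544164-94544175 on the minus strand (Rsad1), chr2:91115256-91115267 on the plus strand (Spi1), chr8:71521854-71521865 on the minus strand (Ccdc194), chr14:20661162-20661173 on the minus strand (Synpo2l) and chr16:17210190-17210201 on the plus strand (Rimbp3). In each of the 5 the match is on the coding strand. In Spi1, Ccdc194, Synpo2l and Rimbp3 all 12 bases are coding. In Rsad1 only 5 are, since the match runs across the intron to exon border.

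Other regions carry other sequence. The strongest of all, in the first coding exon of Angptl6, is shown for its footprints, as 150 bp at the peak's centre on the coding strand (minus, chr9:20878226-20878375), with the 62 bases in footprints of both libraries in capitals. Pparg is shown as the strongest in a urothelial gene (plus strand, chr6:115463056-115463205), marked in the same way, with 18 such bases at the start of a coding exon. Foxn2 is shown for its AP-1 matches (plus strand, chr17:88462791-88462940), where the capitals mark the letters TGANTCA, the AP-1 consensus.
Angptl6: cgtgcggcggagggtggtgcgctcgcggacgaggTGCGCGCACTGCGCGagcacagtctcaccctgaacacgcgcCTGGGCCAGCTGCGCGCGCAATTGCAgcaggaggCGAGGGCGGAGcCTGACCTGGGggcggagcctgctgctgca
Pparg: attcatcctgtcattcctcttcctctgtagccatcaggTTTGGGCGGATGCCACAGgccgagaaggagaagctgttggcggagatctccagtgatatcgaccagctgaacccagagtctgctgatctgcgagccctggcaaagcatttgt
Foxn2: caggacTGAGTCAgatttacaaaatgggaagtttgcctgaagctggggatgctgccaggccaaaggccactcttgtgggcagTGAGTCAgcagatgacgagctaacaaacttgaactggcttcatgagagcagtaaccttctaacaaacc

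Coding exons held more peaks per base than the rest of the genome away from gene starts, yet fewer than non-coding sequence of the same GC content. They made up 28.2 of 2334 Mb more than 1 kb from a TSS, or 1.21%, and held 2.58% of the peaks there in replicate 1 and 2.28% in replicate 2 (mean 2.43% ± 0.216, SD, n = 2). Peak density per Mb was 2.17 and 1.91 times that of non-coding sequence (mean 2.04 ± 0.186, SD, n = 2). Coding sequence is GC-rich, and in both libraries density rose steeply with GC, so the comparison was repeated in 150 bp tiles of equal GC. On that basis 2540 coding-exon peaks would be expected in replicate 1 from the non-coding density, against 1515 observed, and 2980 in replicate 2, against 1868. The ratios were 0.596 and 0.627 (mean 0.612 ± 0.0215, SD, n = 2), so the direction of the comparison reversed. This comparison within GC classes was added after the data had been seen.

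The shortfall was widest at middle GC and small at the extremes. At 55 to 60% GC, coding exons held 63.4 peaks per Mb in replicate 1 against 142 in non-coding sequence, and 81.3 against 166 in replicate 2. At 70% GC or more the densities were 714 and 749 per Mb in replicate 1 and 731 and 725 in replicate 2. Under 40% GC, where only 7 and 16 coding-exon peaks lay, coding density was 2.59 and 1.72 times that of non-coding sequence.

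**Figure D1:**
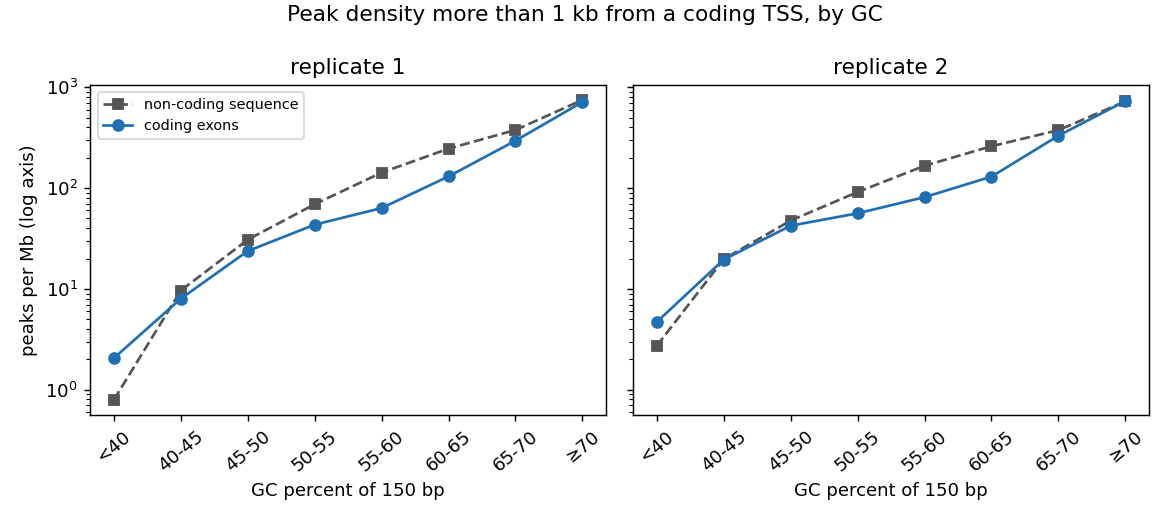
Peaks per Mb more than 1 kb from a coding TSS (log axis) against the GC percent of 150 bp, for coding exons (circles) and non-coding sequence (squares), 1 panel per library. Between 50 and 65% GC the coding line runs below the non-coding line in both libraries, and at 70% or more the lines meet.

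The regions themselves were GC-rich beside other shared peaks. Median GC was 58.6% and 58.5%, against 51.8% and 51.4% in the other non-promoter pairs, a difference of 6.75 and 7.15 points (mean 6.95 ± 0.279, SD, n = 2). The ratio of observed to expected CpG was 0.486 and 0.471, against 0.252 and 0.250. Promoter pairs stood higher still, at 0.764 and 0.756. Sequence at least 20% repeat-masked was less common, in 3.89% and 4.20% of the regions against 13.9% and 13.9%.

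In strength coding-exon regions were like other shared sites. Signal ran from 0.256 to 10.002 in replicate 1 with a median of 0.853, and from 0.159 to 8.76 in replicate 2 with a median of 0.963. The ratio of medians to the other non-promoter pairs was 1.04 and 0.973 (mean 1.01 ± 0.0484, SD, n = 2), which lies on either side of 1. Median width was 200 bp in both libraries. Pairs whose nearer peak lay 1000 to 1200 bp from a TSS, just inside the distance limit, numbered 37 with median signals of 0.784 and 0.990. Just outside it, at 800 to 1000 bp, 62 pairs had medians of 0.810 and 0.937.

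Weak coding-exon peaks of replicate 1 were found again in a smaller share than other weak peaks of that library. Of the coding-exon peaks of replicate 1, 75.2% overlapped any peak of replicate 2, against 83.5% of intron peaks, and in the other direction the shares were 58.6% and 59.3%. Among the weakest 20% of non-promoter peaks of replicate 1, 41.7% of 345 coding-exon peaks overlapped a peak of replicate 2, against 56.1% of the others. Among the strongest 20% the shares were 100% and 99.4%. Replicate 2 showed no such gap in its weakest 20%, at 21.7% and 19.1%. Coding-exon peaks of replicate 1 with no partner at all numbered 376 and had a median signal of 0.448, against 0.844 for those that met a coding-exon peak.

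Regions were placed on the exons of each gene's longest coding transcript, which held 955 of the 977. The other 22 lay in coding sequence of another transcript only. Genes with a single coding exon held 80.0 regions per Mb of coding sequence, first coding exons 71.6, last ones 49.6 and internal ones 26.2, beside 34.3 over all coding sequence. After allowing for the GC content of each exon, single-exon genes held 1.70 times the number expected, first exons 1.46, last exons 1.19 and internal exons 0.844 times. Exons under 100 bp held 20.3 per Mb, those of 500 to 1000 bp held 54.2 and those of at least 1000 bp 45.7. At the GC content of the exons, the classes of length held from 0.766 times the number expected, under 100 bp, to 1.18 times, at 1000 bp or more.

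Exon GC separated the regions more than rank or length did. Exons under 40% GC held 0.936 regions per Mb, from 2 regions in 2.14 Mb. Those of 50 to 55% held 27.9, those of 60 to 65% held 82.1, and those of at least 65% held 279, so that 203 regions lay in 2.61% of the coding bases. Density also fell with distance from the gene start, from 78.5 per Mb at 1 to 2 kb to 23.1 beyond 50 kb. At the GC content of the exons, the 1 to 2 kb class held 1.47 times the number expected and the other classes 0.799 to 0.975 times. Along the coding sequence itself, density stayed between 26.7 and 40.2 per Mb in all 10 equal parts of it.

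**Figure D2:**
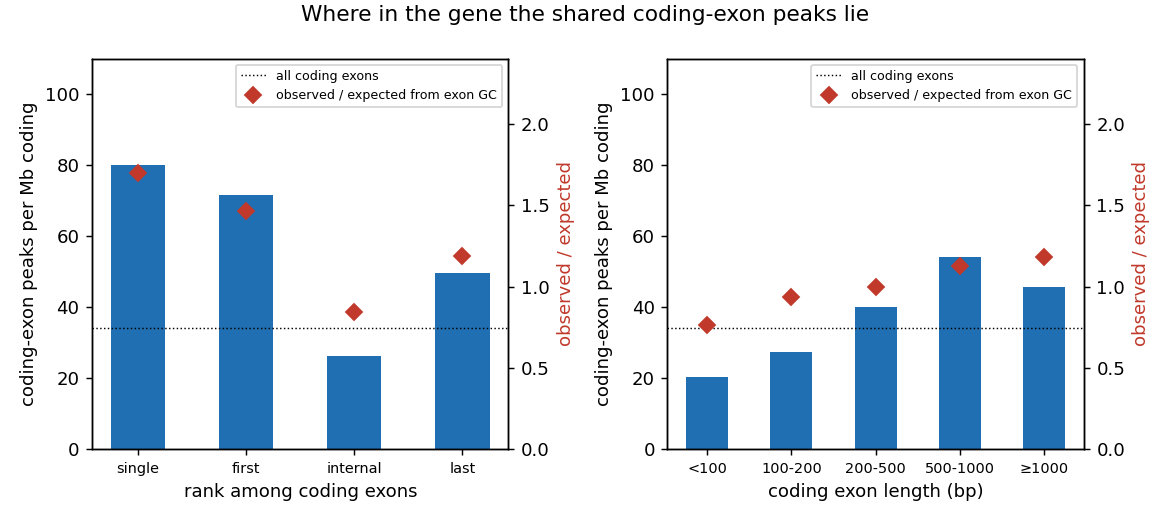
Shared coding-exon peaks per Mb of coding sequence (bars, left axis) by rank of the coding exon and by its length, with the density over all coding exons as a dotted line, and the number observed over that expected from exon GC (diamonds, right axis). Single, first and last exons stand above the dotted line and internal exons below it at 26.2 per Mb.

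Most regions reached past the coding part of their exon. In replicate 1, 43.0% lay wholly inside it, 20.6% ran past both edges, 14.3% past the 5′ edge only and 21.99% past the 3′ edge only, and the shares in replicate 2 were 40.1%, 21.5%, 16.1% and 22.3%. The unevenness was also there among the 547 regions in internal exons, where neither edge is the end of the coding sequence. There 91 regions ran past the 5′ (acceptor) edge only and 137 past the 3′ (donor) edge only in replicate 1, and 103 and 144 in replicate 2. Their midpoints lay at a median of 52.6% and 54.0% of the exon's length from its 5′ edge. In all, 343 regions (35.1%) were wholly coding in both libraries, and 199 (20.4%) lay within 1 kb of a TSS of some other kind of transcript. Some of these 199 are named below, at 47 to 833 bp from such a TSS. They include the regions in Mcm3ap, Nos3, Smtn, Vwf, Inpp5b, Crybg2, Notch4, Cacna1a, Brd9 and Jun, and all 4 in Tril.

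The strongest regions were spread over genes of unrelated function. In Angptl6, which encodes a secreted angiopoietin-like protein, signal was 10.002 in replicate 1 and 8.76 in replicate 2 (chr9:20878101-20878480). In Inpp5b, an inositol polyphosphate phosphatase gene, it was 7.48 and 8.46, at a site 157 bp from the TSS of a transcript of another type and 9.63 kb from a coding TSS (chr4:124751381-124751660). In Rsad1 it was 6.003 and 8.10 (chr11:94544061-94544220). All 3 lay far above the medians of 0.853 and 0.963 in both libraries, and Angptl6 ranked first of them in both. The region in Angptl6 lay 1.42 kb from the nearest coding TSS, close to the distance limit.

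Spi1 encodes PU.1, a transcription factor of myeloid and B cells, and its last coding exon held a region with signals of 5.48 and 7.55 (chr2:91115161-91115360). The last exon of Notch4, a Notch receptor known from endothelium, had signals of 6.36 and 5.62 (chr17:34587481-34587740). The second coding exon of Scnn1a, the alpha subunit of the epithelial sodium channel, had signals of 5.17 and 6.42 (chr6:125331061-125331260). The order of these 3 differed between the libraries. Ccdc194 (4.52 and 7.00), Synpo2l (4.27 and 5.92), Fbxl22 (5.50 and 4.52), B430305J03Rik (5.10 and 4.80) and Rimbp3 (4.54 and 4.98) completed the 12 strongest together with Gm11168. The regions in Rimbp3 and Gm11168 lay 1.57 and 1.70 kb from the nearest coding TSS. Synpo2l encodes an actin-associated protein of muscle and Fbxl22 an F-box protein. The region in Gm11168, with signals of 7.36 and 6.03, was 100% repeat-masked, so reads of other copies could be counted there, and it is uncertain. Of the 12 strongest, 5 held a CTCF consensus match.

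Of the 26 consensus motifs searched, that of CTCF stood out most against other coding sequence. It was searched on both strands in the 150 bp at each peak's centre and matched in 149 of 977 regions, 15.3% (95% exact Clopper-Pearson interval 13.1 to 17.7). In 158617 windows of 150 bp centred on coding exons, without a peak in either library, it matched 0.784%, or 1.43% at the GC content of the regions, 10.6 times less. Other non-promoter pairs matched at 14.3%, or 12.8% at the GC content of the regions. The share in coding-exon regions became 24.0% with the 41236 strongest peaks of each library and 10.7% in replicate 1 alone, where no partner is asked for. Intervals of this kind cover counting error only.

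The matches were mostly footprinted. At least 50% of the match lay in a footprint for 115 of 150 matches in replicate 1 (76.7%) and 139 in replicate 2 (92.7%), and 113 were footprinted in both. Among CTCF matches in other non-promoter pairs the shares were 73.4% and 92.2%. Of the 150, 133 were wholly coding, 14 crossed an edge of the coding sequence and 3 lay outside it. Of 131 that lay wholly in an exon of the longest transcript, 63 were on the coding strand and 68 on the other strand.

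Matches on the coding strand fell unevenly over the reading frame. Of the 63, 40 started at the third base of a codon, 16 at the first and 7 at the second. In coding windows without a peak, 277 of 497 coding-strand matches started at the third base, 167 at the first and 53 at the second, which is the same order. On the other strand the order differed between the sets. Of the 68 matches there, 15 fell to the first base of a codon, 29 to the second and 24 to the third. In coding windows without a peak the first base was instead the most common on that strand, with 179 of 465, and the third the least common.

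The share with a CTCF match rose with strength. In 5 equal classes of mean signal, from weakest to strongest, it was 3.57%, 6.67%, 13.3%, 22.1% and 30.8% of the regions. In 5 classes of their own signal, the other non-promoter pairs ran from 4.50% to 26.4%. Median signal of the 149 regions was 1.06 in replicate 1 and 1.82 in replicate 2, against 0.819 and 0.866 for regions without a match.

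Regions with a CTCF match had higher ratios of replicate 2 to replicate 1 than regions without one. After centring on the median of all 68801 pairs, a shift of 0.14 on the log2 scale, the log2 ratio of the libraries, replicate 2 over 1, had a median of 0.50 in these regions, against -0.10 for regions without one. Of the 149, 87.9% lay above the centre. In all, 65 were at least 1.5-fold higher in replicate 2 (43.6%, against 15.2% of all autosomal pairs) and 4 at least 1.5-fold lower (against 7.26% of all pairs). Over all 977 regions, 145 were at least 1.5-fold higher in replicate 2 (14.8%, against 15.2% of all autosomal pairs). The other 80 held no match, so the 14.8% combines 43.6% of regions with a match and a smaller share of the many without. Among other non-promoter pairs with a match the median was 0.67, against -0.03 without, and 59.0% were at least 1.5-fold higher, so the offset was not limited to coding sequence. Within regions of at least 60% GC the medians were 0.23 with a match and -0.13 without, and under 50% GC they were 0.85 and 0.06.

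**Figure D3:**
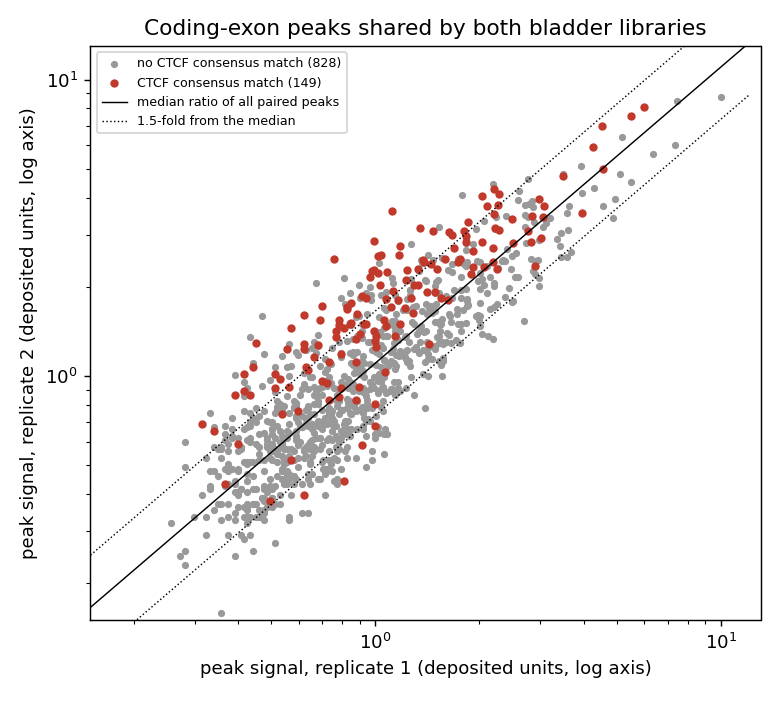
Signal of each of the 977 shared coding-exon peaks in replicate 1 against replicate 2 (deposited units, log axes), with the 149 that hold a CTCF consensus match in red. The solid line is the median ratio of all paired autosomal peaks and the dotted lines lie 1.5-fold from it. The red points lie mostly above the solid line, and 65 of them above the upper dotted line.

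Over all coding-exon regions the median ratio of the libraries lay near that of all pairs. The median centred log2 ratio was -0.01, with an SD over regions of 0.50. Regions at least 1.5-fold higher in replicate 2 numbered 145 (14.8%), and 91 (9.31%) were at least 1.5-fold lower, against 15.2% and 7.26% of all autosomal pairs. The share higher was near that background, and the share lower stood above it. Within 1.5-fold lay 75.8% of the regions, against 77.5% of all autosomal pairs. The share lower in replicate 2 became 5.60% with the shorter peak list, where that of all pairs was 5.58%, and 5.08% with the 41236 strongest peaks of each library, where that of all pairs was 4.14%. In the other non-promoter pairs the shares higher and lower were 20.1% and 8.24%. With 1 library on each side there is no replicate check of these differences.

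The widest gaps among the stronger regions ran up to 3.07-fold. Xpo7, a nuclear transport receptor gene, had a signal of 0.469 in replicate 1 and 1.59 in replicate 2 in coding exon 18. Cutc, a gene named for copper homeostasis, had 0.759 and 2.48, A630076J17Rik had 1.12 and 3.60, Adgrv1, an adhesion receptor gene, had 0.674 and 2.06, and Ppp1r21 had 0.989 and 2.85. Of these 5, 3 held a CTCF match (Cutc, A630076J17Rik and Ppp1r21), and their GC ran from 42.7 to 46.4%. In the other direction, Vps18, which encodes a subunit of vesicle tethering complexes, had 1.39 and 0.778, a centred fold of 1.98. Angpt4 (2.69 and 1.53), Cipc (2.18 and 1.33), Brd9 (1.56 and 0.999) and Mcm3ap (2.12 and 1.37) followed, none with a CTCF match and with GC from 57.0 to 61.2%. Over all regions, the median centred log2 ratio was 0.16 in the 133 under 50% GC and -0.09 in the 431 of at least 60% GC.

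AP-1, a dimer of Fos and Jun family proteins that opens many distal sites, was less common in coding exons. The letters TGANTCA matched in 80 regions (8.19%, interval 6.55 to 10.1), against 17.2% of the other non-promoter pairs, or 13.3% of them at the GC content of the regions. In coding windows without a peak the share was 3.32%, or 2.11% at that GC content. By strength it stayed between 8.67% and 10.7% over the weaker 4 of the 5 classes and was 3.59% in the strongest. Of 84 matches, 5 and 7 were footprinted in replicates 1 and 2 (5.95% and 8.33%), against 12.8% and 15.2% in other pairs.

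Among the strongest regions with an AP-1 match, Rin2, which encodes a guanine exchange factor for a Rab protein, had signals of 3.95 and 4.15, and Fry had 3.57 and 2.53. Foxn2, a forkhead gene with both matches shown above, had 2.39 and 3.47, and Nkx2-2, a homeobox gene, had 1.78 and 4.07. Cntd1 had 1.84 and 1.82. Rsad1 held an AP-1 match beside its CTCF match. After centring, Nkx2-2 was 2.07-fold and Foxn2 1.32-fold higher in replicate 2.

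For other motifs the difference from other accessible sites changed with the GC content at which they were compared. The letters GGGCGG, read by SP and KLF zinc fingers, matched in 163 regions (16.7%), against 9.40% of other non-promoter pairs but 23.2% of them at equal GC, and 9.63% of coding windows without a peak at equal GC. The letters AGATAA, read by GATA factors, matched in 3.28%, against 7.06% of other pairs and 4.15% at equal GC. The letters GGAATG, read by TEAD factors, matched in 9.01%, against 10.5% and 9.20%. No region held an SRF, MEF2 or NFI consensus. By the limit of 3 counts that a count of 0 allows, this leaves a share of up to 0.307%, and the upper end of the exact interval is 0.377%. Other pairs held them at 0.724%, 0.260% and 0.124%. Coding windows without a peak held them at 0.259%, 0.0195% and 0.00752% at equal GC, all under 0.307%. The count of 0 therefore does not set the regions apart from such windows. A match is a description of the letters in this window and says nothing of the factor's presence.

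**Figure D4:**
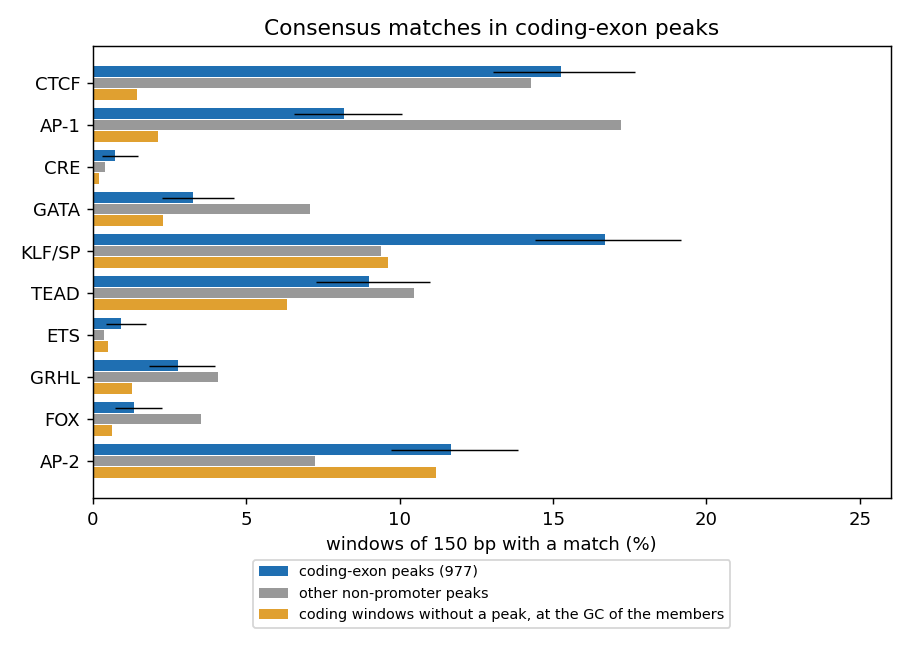
Share of 150 bp windows with a consensus match (%), for the 977 coding-exon peaks (blue, bars with exact binomial intervals), other non-promoter pairs (grey) and coding windows without a peak at the GC of the coding-exon peaks (orange). CTCF stands at 15.3% in coding-exon peaks against 1.43% in coding windows without a peak, and AP-1 at 8.19% against 17.2% in other accessible sites.

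Genes of the urothelium, the epithelium of the bladder, held coding-exon regions in 4 of 24 cases: Pparg, Elf3, Klf5 and Foxa1, all of them transcription factors. Over all genes with coding sequence more than 1 kb from a TSS the share was 4.83% (901 of 18656, counted on the longest transcript, which leaves out Gm11168), and counts of this size allow no ranking of lists. The region in Pparg, a nuclear receptor of urothelial differentiation, had signals of 4.87 and 3.41 in coding exon 5 of 7 (chr6:115463001-115463260). In Elf3, an epithelial ETS factor, they were 2.46 and 2.31 in coding exon 4 (chr1:135256401-135256600). Klf5 (1.15 and 1.18) and Foxa1 (1.11 and 0.901) were near the median of all regions.

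Immediate early genes, which respond to stimuli within minutes, held 5 regions in 4 of 20 genes. Jun had signals of 2.89 and 2.44 and the stronger of the regions in Klf4 had 2.25 and 2.31. Junb had 1.49 and 1.25 and Btg2 0.929 and 0.990. The regions in Jun and Klf4 lay 1.52 and 1.37 kb from the nearest coding TSS, close to the distance limit.

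In the lists of genes of other cell types, 1 to 3 genes each held a region. Of 23 smooth muscle genes, Smtn (0.921 and 0.751) and Vcl (0.375 and 0.592) held a region, both weak. Of 17 endothelial genes, Nos3, the endothelial nitric oxide synthase (2.85 and 3.71), and Vwf, von Willebrand factor (1.74 and 2.48), did. The regions in Nos3 and Vwf lay 57 and 119 bp from the TSS of a transcript of another type, and that in Smtn 105 bp. Tnxb (1.60 and 1.30), Col6a3 and Fn1 did among 24 fibroblast and matrix genes, Spi1 alone among 20 immune genes, and Apoa1 (1.89 and 2.22) alone among 16 hepatocyte genes. The shares of the immune and hepatocyte lists, 5% and 6.25%, were near the 4.83% of all genes. The regions in Spi1 and Apoa1 both held a CTCF match. Expression of these genes was not measured here.

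Some families held none. No region lay in 279 olfactory receptor genes, 166 vomeronasal receptor genes or 81 ribosomal protein genes with coding sequence in reach, which by the same limit of 3 counts allows shares of genes of up to 1.08%, 1.81% and 3.70%. These genes had little coding sequence in reach, 114, 301 and 39.6 kb. At the rate over all coding sequence in reach, 35.05 regions per Mb, that would hold 3.99, 10.6 and 1.39 regions. Keratin genes held 6 regions in 6 of 49 genes (12.2%), where the same rate would hold 1.76. None of these 6 lay in a gene of the urothelial list. Sox genes held 3 in 3 of 16 genes (18.75%), and the share over all genes was 4.83%. These counts are small. Zinc finger genes by name held regions in 15 of 452 (3.32%).

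Most host genes held only 1 region: 839 of 902 did, 48 held 2, 12 held 3, and Tril, Syne1 and Tchh held 4, 5 and 7. The 7 in Tchh all lay in its last coding exon of 4659 bp, and trichohyalin, its product, is a structural protein of the hair follicle. Their signals ran from 0.324 to 1.53 in replicate 1 and from 0.327 to 1.41 in replicate 2, and 5 of the 7 held no footprint in either library. Neither library had a promoter peak at Tchh. Tril, with all 4 in a single exon of 2427 bp, had signals from 0.401 to 1.77 and from 0.557 to 2.46 and an open promoter in both libraries.

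In Syne1, which encodes a giant spectrin-repeat protein linking the nucleus to the cytoskeleton, the 5 lay in 5 exons of 145, 28.3 to 123 kb from a TSS. Signals ran from 0.460 to 1.71 and from 0.389 to 2.47. Dst, another giant cytoskeletal linker gene, held 3 in 3 exons, Aox2, an aldehyde oxidase gene, 3 in 3 exons, and Sptbn4, a beta spectrin gene, 3 in 2 exons. The 3 in Zfp503, a zinc finger gene, lay in 1 exon with signals from 0.699 to 3.59 and from 0.486 to 3.55. Lor (loricrin, a skin barrier protein) and Prr36 held 3 each in 1 exon with no promoter peak, as Tchh did. Genes with more coding sequence held regions more often, from 2.62% of genes with under 1 kb in reach to 21.4% of those with at least 8 kb. Per Mb the order was the opposite, from 49.7 down to 23.1.

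Host genes tended to have open promoters. Of the 902, 76.3% had a promoter peak in both libraries, against 68.9% of other genes with coding sequence in reach. In each of the 5 classes of coding length the share was higher in host genes. Counted over regions, 76.0% (interval 73.2 to 78.7) had a host gene with a promoter peak in both libraries, and 192 of 977 (19.7%, interval 17.2 to 22.3) lay within 2 kb of a coding TSS.

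Footprints were about as dense as in other accessible sites. They numbered 9.30 and 9.86 per kb of peak, 0.973 and 0.9499 times the density of the other non-promoter pairs (mean 0.961 ± 0.0160, SD, n = 2). At least 1 footprint lay in 804 regions in replicate 1 and in 826 in replicate 2, in both for 709 (72.6%), and in neither for 56. Bases in footprints of both libraries were found in 579. Ordered by the smaller of the footprint lengths in the libraries, Angptl6 came first, with 142 bp in replicate 1 and 143 bp in replicate 2. Cacna1a, a calcium channel gene, had 120 and 122 bp and Crybg2 106 and 143 bp. Nrg2 had 96 and 106 bp and Inpp5b 93 and 114 bp, and these 5 regions had GC of 63.6 to 80.0%.

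Dense cutting 200 to 500 bp from the peak centre was more common around coding-exon regions than around intron peaks. The authors' false discovery rate (FDR) of the cutting was under 0.05 somewhere in every region, and 69.1% and 78.3% held one under 0.001. The FDR and the peaks come from the same libraries, so this is no independent check of the regions. At 200 bp upstream on the reference strand, 20.3% of coding-exon regions in replicate 1 and 23.6% in replicate 2 were under 0.05, against 11.4% and 15.4% of 21230 intron peaks. At 500 bp the shares were 10.4% and 12.8%, against 5.10% and 6.25%. Another peak of the same library lay within 500 bp of 23.6% and 27.02% of the regions, and of 17.5% and 21.4% of other non-promoter pairs. Whether the cutting at these distances belonged to the region or to a neighbouring peak was not tested.

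**Figure D5:**
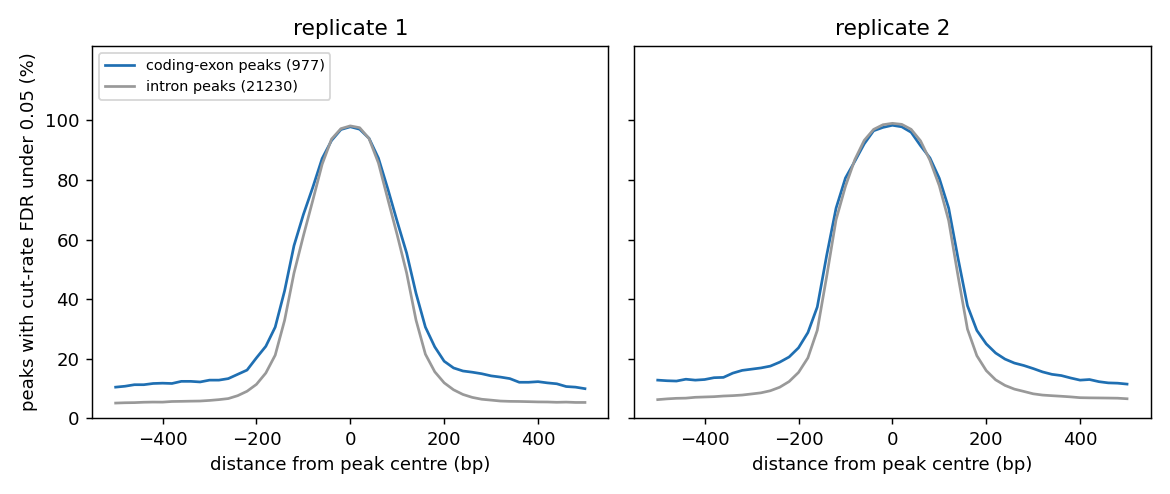
Share of peaks (%) with a cut-rate FDR under 0.05 at each distance from the peak centre, for 977 coding-exon peaks (blue) and 21230 intron peaks (grey), 1 panel per library. Both curves peak at the centre, and from 200 to 500 bp the coding-exon curve stays above the intron curve, at 10.4% against 5.10% at 500 bp upstream in replicate 1.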

How the data were processed

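Both DNase-seq libraries were taken from lists that the authors deposited on mm10, per the labels; the tools that aligned reads and called peaks are not given in the sources used. The longer peak list of each library carries a deposited signal per peak, in whole multiples of 1 undocumented step per library, so total depth is unknown. Deposited footprints carry 1 constant value on the p-value scale and were used as positions only. Deposited stretches of cut rate carry an FDR, on the p-value scale, under 0.05.

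Sequence came from GRCm38.p6, the assembly of mm10, and genes from GENCODE M21. Peaks were paired by largest mutual overlap, ratios were centred on the median of all autosomal pairs, and regions at least 1.5-fold from it were counted. Motifs were searched on both strands of 150 bp windows. GC standardization used classes of GC percent. Expected counts by exon were the rate per GC class times coding bases over 1 kb from a TSS. Functions were tested on simulated data. Python 3.11.15, numpy 2.4.6, pandas 2.3.3 and scipy 1.17.1 were used.

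Regions are not replicates, so no p-value was computed. The members, gene lists and motifs were chosen with earlier results of these data known. Named genes were the 12 strongest regions, the 8 genes with most regions, the 5 with the largest and the 5 with the smallest ratio above median signal, the 6 strongest with a CTCF and with an AP-1 match, the 5 with most footprinted bases, and the 2 strongest per gene list. Klf5, Foxa1, Junb, Btg2, Fn1 and Lor were named after their values were seen. Alternatives varied the distance to a TSS, the coding rule, the peak list, the overlap, the number of peaks, repeats, scaling and single libraries.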

Additional observations from a re-analysis of the deposited data

How the results depend on the processing

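The excess of peaks per base in coding sequence, 2.04 times on average, reversed to 0.612 within classes of GC. Under every other alternative it stayed between 1.84, beyond 2 kb of a TSS, and 2.38, beyond 500 bp. It was 2.33 without repeat-masked peaks, but repeat-masked bases were still counted in the sequence. That value is therefore no check of the excess outside repeats. The number of regions was 977 and became 554 with the shorter list and 413 with the 41236 strongest peaks of each library, and with single libraries, which ask for no partner, it ran from 1515 to 1868. The share of non-promoter peaks moved to 2.07% beyond 2 kb, 3.005% beyond 500 bp, 2.11% with TSSs of every transcript, and 2.77% without repeat-masked peaks. The share that overlapped the other library moved from 66.9% to 52.9% with 50% overlap and 78.8% with equal numbers of peaks. The GC difference moved from 6.95 points to 6.10 beyond 2 kb, 8.35 beyond 500 bp, 6.29 with TSSs of every transcript, 7.54 with 50% of bases coding and 6.48 with 50% overlap. The footprint ratio moved from 0.961 to 1.00 beyond 2 kb, 0.869 beyond 500 bp, 0.997 with the shorter list, 0.980 with 50% overlap and 1.00 with equal numbers, and ran from 0.909 to 0.926 in single libraries. The CTCF share moved from 15.3% to 12.9% beyond 500 bp, 20.2% with the shorter list and 24.0% with equal numbers, and ran from 10.7% to 12.6% in single libraries. Beyond 500 bp, 38.5% lay within 2 kb of a TSS and 81.5% had an open host promoter. At that distance 12.5% were at least 1.5-fold higher in replicate 2, against 15.2% of all pairs. The share at least 1.5-fold lower in replicate 2 moved from 9.31% to 5.60% with the shorter list and 5.08% with equal numbers. Over all pairs that share moved from 7.26% to 5.58% and 4.14%. The cause of these moves was not tested. The share within 2 kb has no value beyond 2 kb, and the single libraries give no ratio. The median log2 ratio lay between -0.08 and 0.14 under all its alternatives, including no centring. No paired analysis was possible because the series has 1 group.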
